A study of Arabidopsis thaliana with 16 samples.

Results

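Expansins and xyloglucan endotransglucosylase/hydrolases (XTHs) are the proteins of growing plant cell walls that let the wall yield without dissolving it. Expansins of the alpha (EXPA) and beta (EXPB) classes loosen the contacts between cellulose microfibrils and the matrix at acid pH and have no lasting enzymatic activity on the polymers. The expansin-like class (EXLA) shares their fold, but its wall-loosening activity has not been established. XTHs cut the xyloglucan chains that lie between microfibrils and rejoin them to other chains, and some act instead as hydrolases. In leaves both families are best known from expansion growth, and several members also respond to hormones, touch and pathogens.

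The genes were taken from a list of 37 Arabidopsis thaliana loci, 14 expansins and 23 XTHs, through the probe sets annotated to them. In the annotation used, 16 of the 37 have a probe set of their own, 8 expansins and 8 XTHs, and the other 21, among them EXPA1, XTH4 and the touch gene XTH22, were not analysed here. A filter on dim probe sets kept 10 of the 16 among the 13647 probe sets tested, and the 6 left out are described by their signals. The 10 tested genes are EXPA8, EXPA4, EXPA16, EXPB1, EXPB3, EXLA1, XTH18, XTH19, XTH27 and XTH32.

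Leaves of 4-week-old plants of the mutants atgsnor1-1, atgsnor1-3 and sid2 and of the accession Col-0 were compared, each 6 h after avrB and untreated, on 16 one-colour ATH1 arrays with 2 arrays in each of the 8 groups. All plants grew on compost at 20 °C and 65% relative humidity with nights of 6 h between light periods of 18 h. AvrB is a Pseudomonas syringae effector that is recognised through the resistance protein RPM1; the labels name neither the strain that carried it, nor its dose, nor a mock inoculation, so that the response includes whatever inoculation and the elapsed time did. GSNOR1 is the reductase of S-nitrosoglutathione, the main reserve of nitric oxide in cells; in the literature atgsnor1-3 has lost this activity and atgsnor1-1 has more of it, and sid2 lacks an isochorismate synthase on the path to salicylic acid, a hormone of pathogen defence. Nothing in the labels ties the 2 arrays of a group to separate plants, so the p-values measure only the spread between these samples. The GSNOR1 and isochorismate synthase genes were not analysed here, and the genotypes rest on the labels alone.

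Signals are linear units that the authors scaled to a common mean for each array. The median signal of an array lay between 33.0 and 40.8 units, and the Pearson correlation between log2 signals of the 2 arrays of a group, across probe sets, between 0.920 and 0.972. For 4 of the 16 arrays the closest array belonged to another group. The leaf label was checked with 12 mesophyll marker genes, of which 2 had a probe set in the annotation used. RCA and PRK, which encode Rubisco activase and phosphoribulokinase of the Calvin cycle, had signals of 2873 to 7364 units and 1053 to 5180.2 units. Of the other cell types listed, the guard cell factor FAMA ran from 29.2 to 71.9 units and the root glucosidase PYK10 from 3.28 to 27.2 units. None of the listed markers of epidermis, vascular tissue and flower had a probe set in that annotation. In a whole leaf, fewer cells of a type and less RNA per cell cannot be told apart.

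Differences are log2 differences of group means with their standard errors from 1 limma model over all arrays, and p-values are Benjamini-Hochberg adjusted over the 13647 probe sets. A gene rose or fell where the adjusted p was under 0.05 and the log2 difference at least 1 in size. Signals under 20.2 units, the level of the filter, were too dim for their ratios to be read as fold changes. Where they enter a called difference between 2 groups, the fold change is given only as a lower bound, with every such signal raised to 20.2 units, or not at all where both groups lie under that level. Fits of signals raised in this way, chosen after seeing the data, are named as such.

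After avrB, the alpha-expansin EXPA8 fell and the xyloglucan-modifying XTH18 rose in all 4 genotypes, while EXLA1 rose in 3 of them. In atgsnor1-3, 3 of the 10 genes rose and 6 fell, against 15.0% and 20.0% of all probe sets tested. In atgsnor1-1, 2 rose and 2 fell, against 8.58% and 10.5% of all probe sets. In sid2, 2 rose and 2 fell as well, against 10.9% and 11.6%. In Col-0, 2 rose and 1 fell, against 7.31% and 5.07%. The median log2 difference of the 10 genes was -1.49 in atgsnor1-3, where that of all probe sets was -0.15. In the other genotypes it was -0.23 in atgsnor1-1, -0.21 in sid2 and 0.21 in Col-0, beside -0.08, -0.16 and -0.12 for all probe sets. The leaf markers moved in the same comparison: the summed signal of RCA and PRK was 4217 to 5621 units in avrB arrays and 8270.2 to 12173 units in untreated arrays, and PRK fell in all 4 genotypes, by 1.02 to 2.11 on the log2 scale. Whether that shift in leaf transcripts has a part in the values of the wall genes was not tested.

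**Figure D1:**
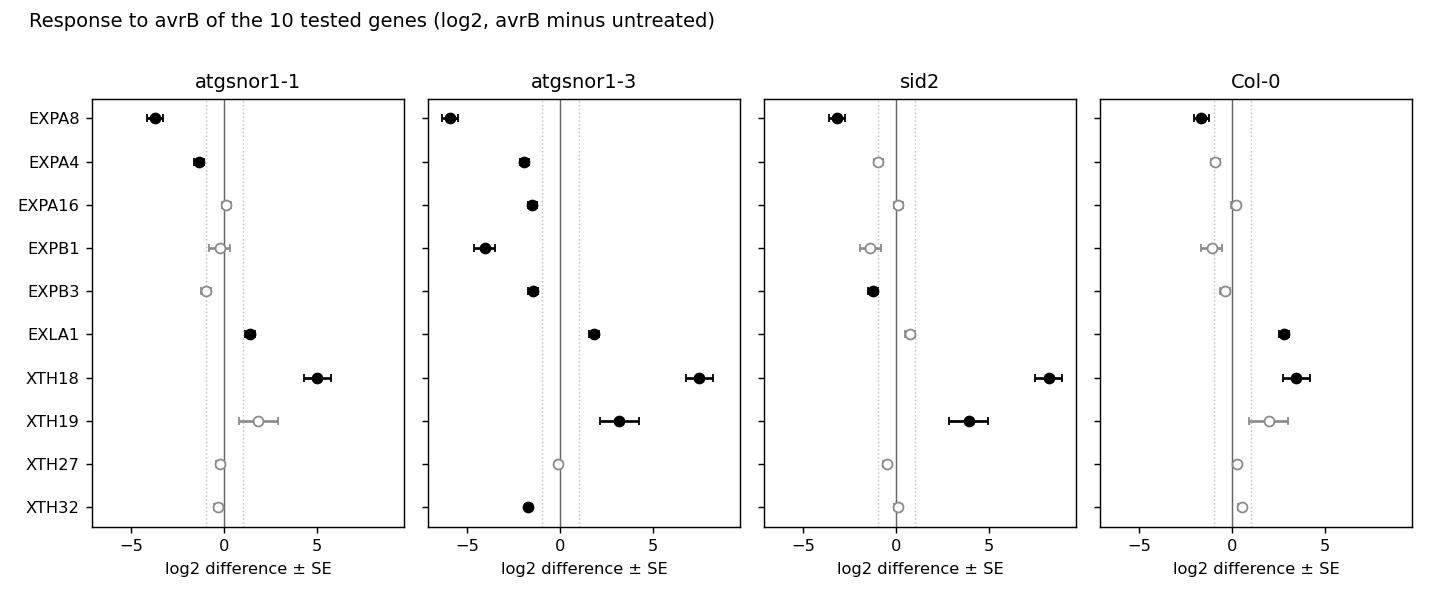
Log2 difference between avrB and untreated arrays (x axis) for the 10 tested genes (rows), with 1 panel for each genotype; bars are standard errors of the fit on 2 arrays a group, filled black points passed both thresholds, open grey points did not, and dotted lines mark a difference of 1 in either direction. EXPA8 lies between -5.91 and -1.66 and XTH18 between 3.45 and 8.20. There are 9 filled points in atgsnor1-3 and 4, 4 and 3 in atgsnor1-1, sid2 and Col-0. The shares of all probe sets called higher and lower were largest in atgsnor1-3 too, at 15.0% and 20.0%. They were 8.58% and 10.5% in atgsnor1-1, 10.9% and 11.6% in sid2 and 7.31% and 5.07% in Col-0.

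Of the 3 alpha-expansins tested, EXPA8 (AT2G40610) had the largest response. Its signal was 2.92 and 11.5 units in the 2 avrB arrays of atgsnor1-3, against 413 and 295 units untreated. In atgsnor1-1 it was 26.2 and 23.5 units after avrB, against 351 and 310.1 units untreated. In sid2 it was 30.7 and 40.5 units after avrB, against 327 and 321 units untreated. In Col-0 the arrays stood closer together, but the groups did not overlap there either: 70.9 and 52.6 units after avrB, against 223 and 167 units untreated. EXPA8 fell by 5.91 ± 0.42 on the log2 scale in atgsnor1-3 (limma adjusted p = 1.1e-08), where both avrB signals were under the filter level, so that the decrease is at least 17.2-fold. It fell by 3.73 ± 0.42 in atgsnor1-1 (limma adjusted p = 5.43e-06), a 13.3-fold decrease, by 3.20 ± 0.42 in sid2 (limma adjusted p = 1.75e-05), 9.19-fold, and by 1.66 ± 0.42 in Col-0 (limma adjusted p = 0.00854), 3.17-fold. In the genotypes whose arrays were all above the filter level, the decrease ranked 9 from the bottom of the 13647 probe sets in atgsnor1-1, 17 in sid2 and 115 in Col-0. The call in Col-0 was lost without the first untreated array (-1.45, limma adjusted p = 0.0685) or the second avrB array (-1.45, limma adjusted p = 0.0805).

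EXPA4 (AT2G39700), an alpha-expansin of the same wall-loosening class, was lower in both avrB arrays than in both untreated arrays of each of the 4 genotypes. Its signal was 47.2 and 27.1 units after avrB against 141 and 132 units untreated in atgsnor1-3, and 54.6 and 68.8 units against 158 and 155 units in atgsnor1-1. In sid2 it was 81.6 and 105 units after avrB against 172 and 189.7 units untreated, and in Col-0 113 and 83.0 units against 184 and 182 units. EXPA4 fell by 1.93 ± 0.25 in atgsnor1-3 (limma adjusted p = 6.7e-06) and by 1.35 ± 0.25 in atgsnor1-1 (limma adjusted p = 0.000448). The differences of -0.96 ± 0.25 in sid2 (limma adjusted p = 0.00529) and -0.91 ± 0.25 in Col-0 (limma adjusted p = 0.0123) had a small adjusted p but missed the size threshold. The difference in sid2 passed without its second avrB array (-1.14) or its first untreated array (-1.04), and that in Col-0 without its first avrB array (-1.14).

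EXPA16 (AT3G55500), the third alpha-expansin tested, fell only in atgsnor1-3 among the 4 genotypes. There it had 37.1 and 37.5 units after avrB and 93.7 and 119.7 units untreated, a decrease of 2.84-fold (log2 difference -1.51 ± 0.24, limma adjusted p = 7.07e-05). In the other genotypes the arrays of the 2 states overlapped: 75.9 and 64.9 units after avrB against 71.9 and 58.5 units untreated in atgsnor1-1, 106 and 123 units against 85.9 and 132 units in sid2, and 112 and 122 units against 121 and 87.7 units in Col-0. The log2 differences there were 0.11, 0.10 and 0.18, each with a standard error of 0.24.

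The beta-expansins have the same domains as the alpha-expansins, and in grass pollen they act on the grass cell wall. EXPB1 (AT2G20750) had 1.35 and 3.93 units after avrB in atgsnor1-3, against 49.8 and 29.3 units untreated. It fell there by 4.05 ± 0.56 on the log2 scale (limma adjusted p = 1.64e-05), but since both avrB signals were far below the filter level and the untreated ones little above it, the decrease is only bounded as at least 1.89-fold. With signals raised to the filter level, the difference missed the size threshold (-0.92, limma adjusted p = 0.0180). In sid2 EXPB1 had 9.89 and 12.4 units after avrB against 38.6 and 22.1 units untreated (log2 difference -1.40 ± 0.56, limma adjusted p = 0.0613). In atgsnor1-1 it had 27.4 and 23.7 units after avrB against 32.2 and 28.0 units untreated (-0.24 ± 0.56), and in Col-0 28.4 and 22.4 units against 49.8 and 59.5 units (-1.11 ± 0.56, limma adjusted p = 0.169). The arrays did not overlap between states in any of the 4 genotypes, yet the difference passed the thresholds in atgsnor1-3 alone. In a fit of the compared groups alone it also passed in sid2 and in Col-0 (limma adjusted p = 0.0489 and 0.0491), and with raised signals in Col-0 (limma adjusted p = 0.0113).

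EXPB3 (AT4G28250) was also lower after avrB in each genotype without overlap of the arrays, and it fell in atgsnor1-3 and sid2. Its signal was 25 and 26.6 units after avrB and 74.3 and 68.2 units untreated in atgsnor1-3 (log2 difference -1.46 ± 0.27, limma adjusted p = 0.000263). In sid2 it was 27.6 and 42.2 units after avrB and 89.4 and 76.5 units untreated (-1.28 ± 0.27, limma adjusted p = 0.00136), and -0.97 without the first avrB array, which ends that call. In atgsnor1-1 it was 44.1 and 31.7 units after avrB and 79.0 and 67.4 units untreated, a difference of -0.96 ± 0.27 (limma adjusted p = 0.0111) just short of the size threshold, which it reached without the second untreated array (-1.08) or the first avrB array (-1.20). In Col-0 the groups lay closest, at 52.9 and 47.6 units after avrB and 61.3 and 72.5 units untreated (-0.41 ± 0.27, limma adjusted p = 0.298).

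EXLA1 (AT3G45970), of the expansin-like class, was higher after avrB. Its signal was 248 and 293 units after avrB against 69.2 and 83.5 units untreated in atgsnor1-3, and 102 and 158 units against 42.5 and 54.1 units in atgsnor1-1. In sid2 the untreated arrays were already high, with 378 and 507 units after avrB against 213 and 325 units untreated. In Col-0 it was 267 and 285 units after avrB against 50.6 and 31.3 units untreated. EXLA1 rose by 1.83 ± 0.27 in atgsnor1-3 (limma adjusted p = 3.53e-05), 3.55-fold, by 1.40 ± 0.27 in atgsnor1-1 (limma adjusted p = 0.000808), 2.65-fold, and by 2.79 ± 0.27 in Col-0 (limma adjusted p = 3.35e-06), 6.92-fold. The difference in sid2 was 0.73 ± 0.27 (limma adjusted p = 0.0444), under the size threshold, and 1.04 without the second untreated array, which then passed. The avrB arrays lay above the untreated arrays in each of the 4 genotypes.

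**Figure D2:**
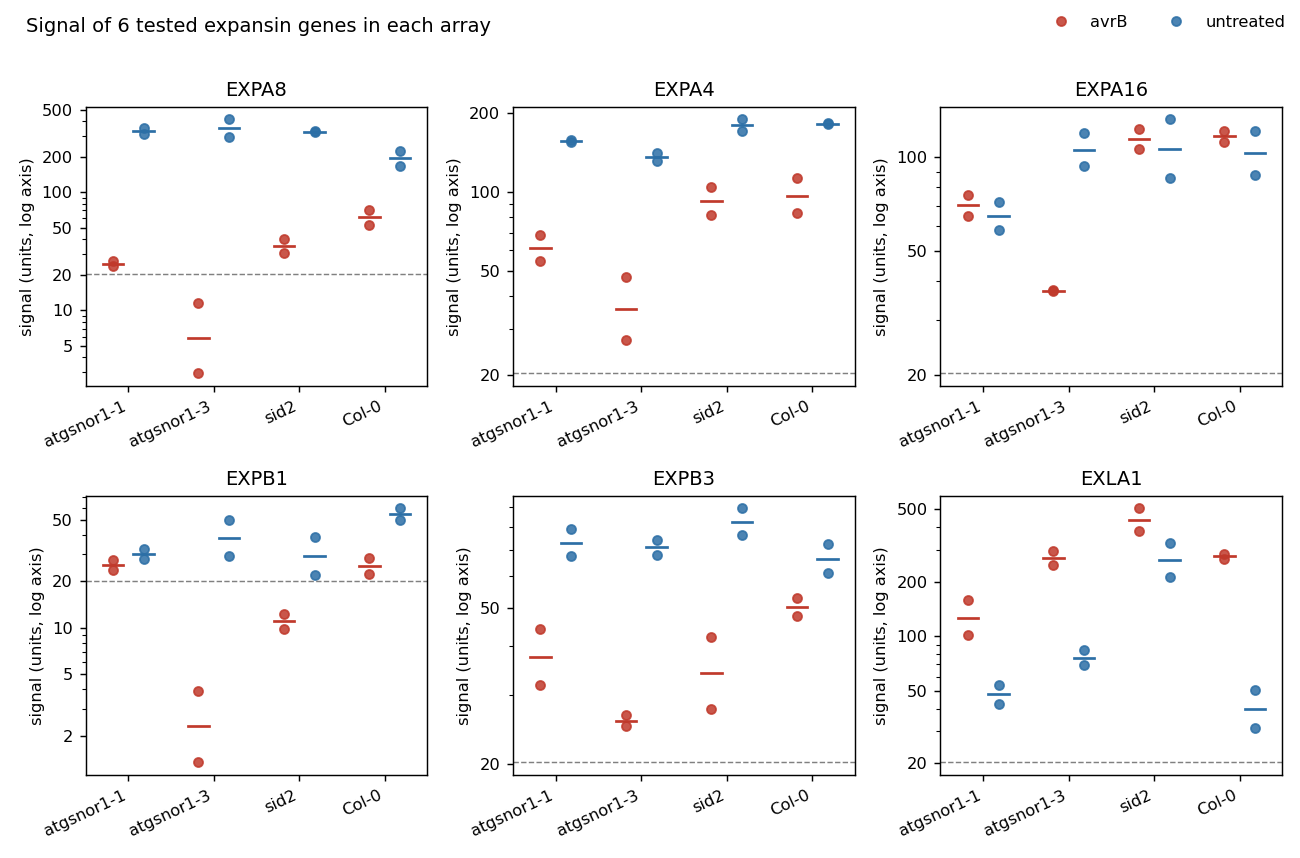
Signal in units on a log axis for the 6 tested expansins, 1 panel a gene, with the 2 avrB arrays (red) to the left of the 2 untreated arrays (blue) in each genotype; horizontal bars are geometric means of the 2 arrays and the dashed line is the filter level of 20.2 units. EXPA8, EXPA4, EXPB1 and EXPB3 lie lower in red than in blue in all genotypes, and EXLA1 lies higher in red. The blue EXLA1 points of sid2, at 213 and 325 units, stand above those of the other genotypes.

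XTH18 (AT4G30280), an XTH best known from elongating roots, was near background in untreated leaves and high after avrB. Its signal was 410.4 and 608 units after avrB in sid2 against 2.35 and 1.23 units untreated, and 312 and 344 units in atgsnor1-3 against 1.76 and 1.92 units. In atgsnor1-1 it was 93.8 and 106 units after avrB against 0.962 and 9.90 units untreated, and in Col-0 103 and 151 units against 11.2 and 11.6 units. XTH18 rose in sid2 (log2 difference 8.20 ± 0.73, limma adjusted p = 2.7e-07), in atgsnor1-3 (7.47 ± 0.73, limma adjusted p = 3.6e-07), in atgsnor1-1 (5.01 ± 0.73, limma adjusted p = 6.17e-05) and in Col-0 (3.45 ± 0.73, limma adjusted p = 0.00251). All 8 untreated signals were under the filter level, so the increases are bounded as at least 24.7-fold in sid2, 16.2-fold in atgsnor1-3, 4.92-fold in atgsnor1-1 and 6.17-fold in Col-0. The bound is lower in atgsnor1-1 than in Col-0 although the fitted difference is larger there, because the fitted differences also carry the untreated signals of 0.962 to 11.6 units. Without the first untreated array of atgsnor1-1 the difference there was 3.33.

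XTH19 (AT4G30290), the next protein-coding gene along chromosome 4 from XTH18 in the TAIR10.1 annotation and a close relative of it, was highest in sid2 after avrB. It had 168 and 212 units there against 22.4 and 7.28 units untreated, an increase of at least 8.88-fold (log2 difference 3.89 ± 1.05, limma adjusted p = 0.00768). In atgsnor1-3 it had 57.1 and 43.6 units after avrB against 1.53 and 20.4 units untreated, at least 2.46-fold (3.16 ± 1.05, limma adjusted p = 0.0185). In atgsnor1-1 it had 25.6 and 32.7 units after avrB against 16.6 and 4.06 units untreated (1.82 ± 1.05, limma adjusted p = 0.207), and in Col-0 26.2 and 55.8 units against 24.6 and 3.85 units (1.97 ± 1.05, limma adjusted p = 0.189). The avrB arrays lay above the untreated ones in all 4 genotypes, but in Col-0 by only 26.2 against 24.6 units. The call in atgsnor1-3 was lost without its first untreated array (1.29, limma adjusted p = 0.287) and without either avrB array (limma adjusted p = 0.0835 and 0.0548), while the difference was 5.03 without the second untreated array. The call in sid2 was lost without its second untreated array (limma adjusted p = 0.0850) and without its second avrB array (limma adjusted p = 0.0552). Whether the 2 probe sets tell transcripts of these related neighbours apart was not tested.

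XTH27 (AT2G01850, EXGT-A3), known from tracheary elements of developing leaf veins, did not pass the thresholds for avrB in any genotype. Its signal was 542 and 668 units after avrB against 724 and 1032 units untreated in sid2, the pair of groups with the largest difference (-0.52 ± 0.20, limma adjusted p = 0.0478). It was 432 and 407 units after avrB against 390.2 and 522 units untreated in atgsnor1-3 (-0.11 ± 0.20), and 325 and 331 units against 356 and 411 units in atgsnor1-1 (-0.22 ± 0.20). In Col-0 it was 330.0 and 389 units after avrB against 342 and 266 units untreated (0.25 ± 0.20).

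XTH32 (AT2G36870), of the subgroup of the family in which hydrolases are known, fell in atgsnor1-3 and in no other genotype. It had 43.8 and 37.3 units there after avrB and 130.2 and 136 units untreated, a 3.29-fold decrease (log2 difference -1.72 ± 0.20, limma adjusted p = 2.82e-06). In atgsnor1-1 the avrB arrays lay below the untreated ones, at 91.0 and 91.9 units against 125 and 108 units (-0.34 ± 0.20, limma adjusted p = 0.216), and in sid2 the arrays overlapped, at 169.7 and 147 units against 159.6 and 137 units (0.09 ± 0.20). In Col-0 the avrB arrays lay above, at 133 and 160.1 units against 86.4 and 122 units (0.51 ± 0.20, limma adjusted p = 0.0797).

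**Figure D3:**
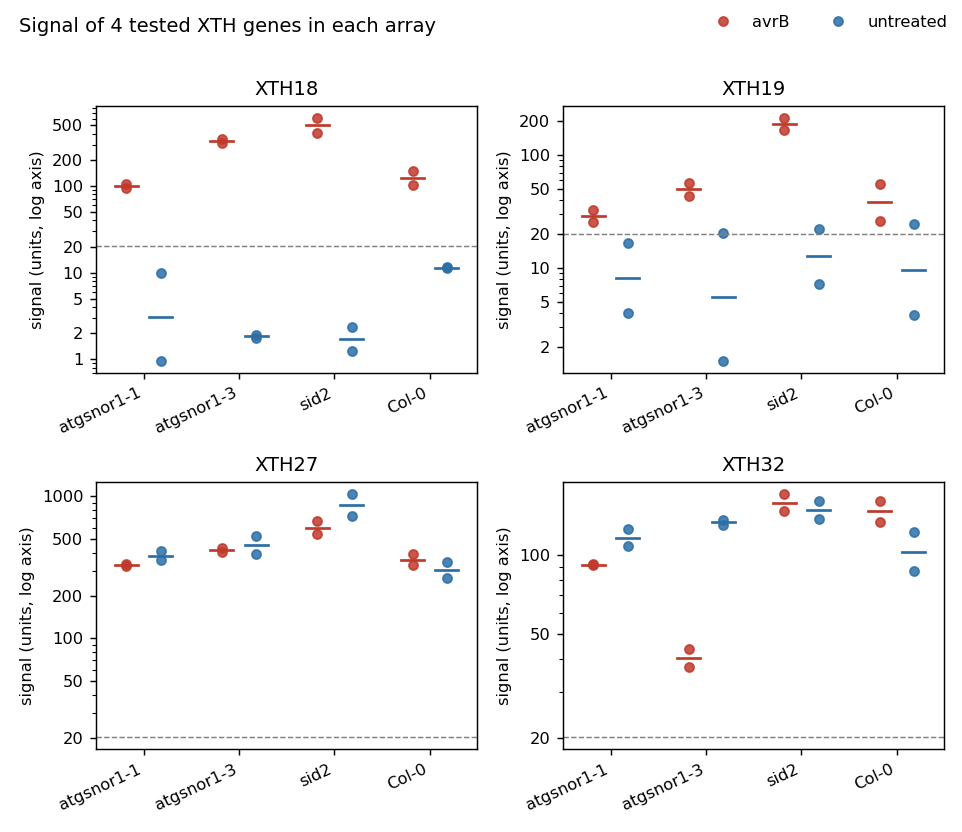
Signal in units on a log axis for the 4 tested XTHs, drawn as for the expansins, with avrB arrays (red) left of untreated arrays (blue), geometric means as bars and the filter level of 20.2 units dashed. The red XTH18 points, from 93.8 to 608 units, are far above the blue ones, from 0.962 to 11.6 units, and the red XTH32 points of atgsnor1-3, at 43.8 and 37.3 units, lie below all other points of that gene.

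The mutants were next compared with Col-0 after avrB. In atgsnor1-3, 5 of the 10 genes were lower than in Col-0 and none was higher, against 8.76% and 4.32% of all probe sets. The 5 were the alpha-expansins EXPA8, EXPA4 and EXPA16, the beta-expansin EXPB1 and XTH32. From the avrB arrays given above, EXPA8 had a log2 difference of -3.40 ± 0.42 (limma adjusted p = 2.37e-05), which is at least 3.02-fold, and EXPB1 had a difference of -3.45 ± 0.56 (limma adjusted p = 0.00031), at least 1.25-fold. With raised signals EXPB1 no longer passed (-0.32, limma adjusted p = 0.499). The difference was -1.85 ± 0.20 for XTH32 (limma adjusted p = 6.86e-06), or 3.61-fold, -1.65 ± 0.24 for EXPA16 (limma adjusted p = 0.00012), or 3.13-fold, and -1.44 ± 0.25 for EXPA4 (limma adjusted p = 0.000471), or 2.71-fold. EXPB3 had a difference of -0.96 ± 0.27 (limma adjusted p = 0.016), short of the size threshold, and EXLA1 one of -0.03 ± 0.27. XTH18 was higher in both atgsnor1-3 avrB arrays than in both of Col-0, but its difference of 1.39 ± 0.73 did not pass (limma adjusted p = 0.186).

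After avrB, none of the 10 genes passed the thresholds in atgsnor1-1 or in sid2 against Col-0 in limma, against 0.161% and 1.5% of all probe sets in either direction. An unadjusted p under 0.05 was found for 5 genes in atgsnor1-1 and 4 in sid2. Here and below, the share of all probe sets at that unadjusted p was not computed, so such counts cannot be set against it. In atgsnor1-1 the largest differences were -1.30 ± 0.42 for EXPA8 (limma adjusted p = 0.238) and -1.12 ± 0.27 for EXLA1 (limma adjusted p = 0.105). In sid2 they were 2.30 ± 1.05 for XTH19 (limma adjusted p = 0.358), which ranked 5 from the top of all probe sets, and 2.00 ± 0.73 for XTH18 (limma adjusted p = 0.215). A fit of the compared groups alone, used below, has fewer arrays and fewer residual degrees of freedom than the shared model. In the shared model the spread of XTH18 and XTH19 includes their untreated arrays, none above 24.6 units. With a pseudocount of 9.48 units or in a fit of the compared groups alone, both passed in sid2, XTH18 at limma adjusted p = 0.000398 and 1.18e-05 and XTH19 at 0.0247 and 6.18e-05. XTH18 then also passed in atgsnor1-3, at limma adjusted p = 0.00166 and 0.000232. With raised signals these 3 differences passed too, and so did EXPA8 in atgsnor1-1 (limma adjusted p = 0.0138). In a fit of the compared groups alone, EXLA1 passed in atgsnor1-1 (limma adjusted p = 0.0218), as it did without the second avrB array of atgsnor1-1 (-1.44, limma adjusted p = 0.0469).

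**Figure D4:**
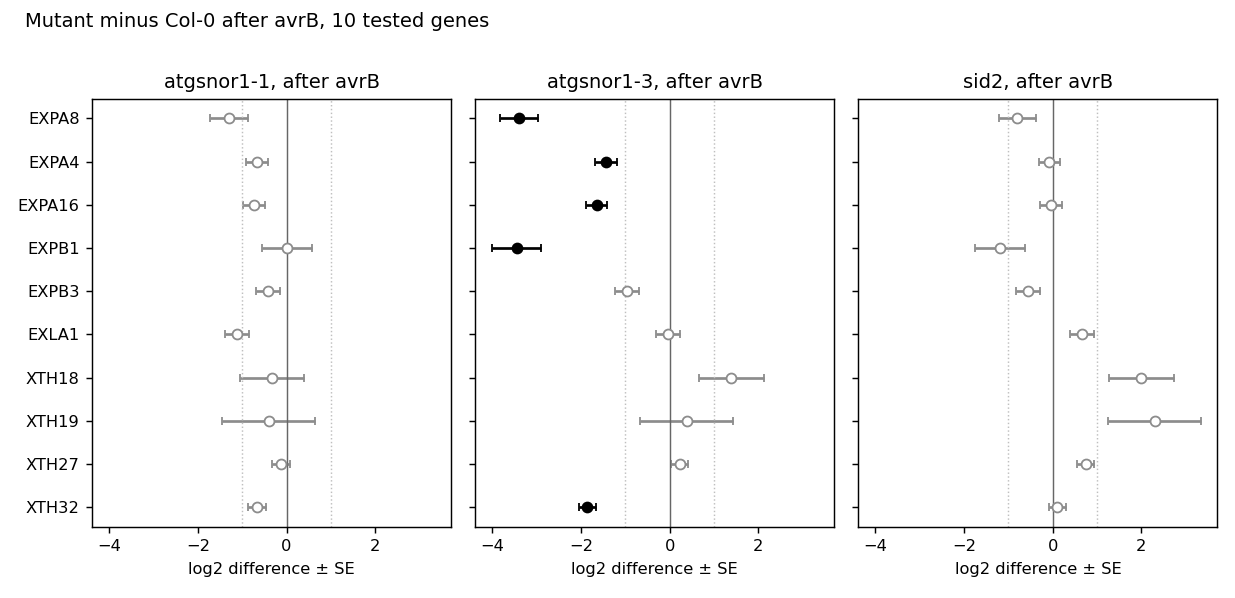
Log2 difference between each mutant and Col-0 after avrB (x axis) for the 10 tested genes (rows), 1 panel a mutant, with standard errors of the fit on 2 arrays a group; filled black points passed both thresholds, open grey points did not, and dotted lines mark a difference of 1. The 5 filled points all lie in the atgsnor1-3 panel, below 0, from -3.45 for EXPB1 to -1.44 for EXPA4. Of all probe sets, 8.76% were called lower there, against 0.161% and 1.5% called in either direction in atgsnor1-1 and sid2.

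The mutants were also set against each other after avrB, in comparisons added once the values had been seen. In atgsnor1-3 against sid2 the median log2 difference of the 10 genes was -1.49, where that of all probe sets was 0.03. Of the 10 genes, 5 were lower and none was higher, against 6.34% and 2.52% of all probe sets. They were EXPA8 (-2.61 ± 0.42, limma adjusted p = 0.000492), EXPB1 (-2.26 ± 0.56, limma adjusted p = 0.0104), XTH32 (-1.96 ± 0.20, limma adjusted p = 9.22e-06), EXPA16 (-1.61 ± 0.24, limma adjusted p = 0.000252) and EXPA4 (-1.37 ± 0.25, limma adjusted p = 0.00115). In atgsnor1-3 against atgsnor1-1, 3 were lower and 1 was higher, against 8.98% and 5.42% of all probe sets. EXPB1 (-3.47 ± 0.56, limma adjusted p = 0.00027), EXPA8 (-2.10 ± 0.42, limma adjusted p = 0.0016) and XTH32 (-1.18 ± 0.20, limma adjusted p = 0.000436) were the lower ones, and EXLA1 (1.09 ± 0.27, limma adjusted p = 0.00748) was the higher one. These comparisons share the 2 avrB arrays of atgsnor1-3 with the one against Col-0. For EXPA8 and EXPB1 both of those arrays were under the filter level. The EXPA8 decrease is therefore at least 1.74-fold against sid2 and 1.23-fold against atgsnor1-1, and that of EXPB1 at least 1.26-fold against atgsnor1-1, with no fold against sid2, whose arrays were under the level too. With raised signals none of these 4 differences passed (EXPA8 -0.80 against sid2 and -0.30 against atgsnor1-1, EXPB1 0 and -0.33). Without the first avrB array of atgsnor1-3 the EXPA8 difference was -1.62 against sid2 and -1.11 against atgsnor1-1, while the EXPB1 call against sid2 was lost (-1.49, limma adjusted p = 0.0950). The EXPB1 call against sid2 was also lost without the second avrB array of sid2, with the pseudocount and in a fit of the compared groups alone (limma adjusted p = 0.0759, 0.0982 and 0.332). In a fit of the compared groups alone, EXPA8 and EXPB1 no longer passed against atgsnor1-1 (limma adjusted p = 0.0909 and 0.0675). EXPA4 against sid2 missed the size threshold without the second avrB array of atgsnor1-3 (-0.97), and EXLA1 against atgsnor1-1 did so without the first avrB array of atgsnor1-1 (0.77) or the second of atgsnor1-3 (0.97). XTH18 against atgsnor1-1 (1.72 ± 0.73, limma adjusted p = 0.0952) and XTH19 against sid2 (-1.92 ± 1.05) passed only with the pseudocount, with raised signals or in a fit of the compared groups alone, and EXPA4 and EXPA16 against atgsnor1-1, at -0.78 and -0.91, reached the size threshold without the first avrB array of atgsnor1-3 (-1.18, EXPA4) or the second of atgsnor1-1 (-1.03, EXPA16).

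Whether a mutant responded otherwise than Col-0 was tested as the difference between the 2 responses. In atgsnor1-3, 1 of the 10 genes passed with a response above that of Col-0 and 4 with one below it, against 6.79% and 8.27% of all probe sets. The response of EXPA8 was -5.91 in atgsnor1-3 and -1.66 in Col-0, and the responses differed by -4.25 ± 0.60 (limma adjusted p = 0.000145). With signals raised to the filter level they differed by -2.45 ± 0.33 (limma adjusted p = 2.49e-05). For XTH32 the 2 responses had opposite signs, -1.72 in atgsnor1-3 and 0.51 in Col-0, and differed by -2.22 ± 0.29 (limma adjusted p = 6.97e-05). For EXPA16 the responses were -1.51 in atgsnor1-3 and 0.18 in Col-0, with a difference of -1.69 ± 0.34 (limma adjusted p = 0.00264). In Col-0 neither the XTH32 nor the EXPA16 response passed the thresholds, and the EXPA16 arrays of the 2 states overlapped there. EXPB1 differed by -2.94 ± 0.80 (limma adjusted p = 0.0166), a call lost with the pseudocount (-1.11, limma adjusted p = 0.0902), in a fit of the compared groups alone (limma adjusted p = 0.0745), and without the first untreated or first avrB array of atgsnor1-3 or the first avrB array of Col-0 (limma adjusted p = 0.0558, 0.0520 and 0.0635). With raised signals the EXPB1 difference turned to 0.19 ± 0.44 (limma adjusted p = 0.810). XTH18 differed by 4.02 ± 1.03 (limma adjusted p = 0.0124), and by 3.75 without the first avrB array of Col-0 (limma adjusted p = 0.0567). The XTH18 value carries the untreated signals of 1.76 and 1.92 units in atgsnor1-3 and 11.2 and 11.6 units in Col-0, all under the filter level. With raised signals it was 1.39 ± 0.35 (limma adjusted p = 0.00722). EXPA4 (-1.02 ± 0.35, limma adjusted p = 0.0529) and EXPB3 (-1.05 ± 0.38, limma adjusted p = 0.0666) missed the threshold of the adjusted p. EXPA4 passed without the second avrB array of Col-0 (-1.24) or the first of atgsnor1-3 (-1.42), and EXLA1 without the first untreated array of Col-0 (-1.31). With raised signals EXPA4 passed too (limma adjusted p = 0.0450). The leaf marker PRK also fell further in atgsnor1-3 than in Col-0, by a difference of -1.09 ± 0.22 (limma adjusted p = 0.0029), and its part in these values was not tested.

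In sid2, EXLA1 passed with a smaller response than Col-0, 0.73 in sid2 and 2.79 in Col-0 (difference -2.06 ± 0.39, limma adjusted p = 0.00653). XTH18 passed with a larger one, 8.20 in sid2 and 3.45 in Col-0 (difference 4.75 ± 1.03, limma adjusted p = 0.0183). With raised signals the XTH18 difference was 2.00 ± 0.35 (limma adjusted p = 0.00151), and XTH19 passed as well (2.37, limma adjusted p = 0.00281). These are 1 gene above and 1 below the response of Col-0 among the 10, against 1.92% and 0.681% of all probe sets. The XTH18 call did not hold without the second untreated array of Col-0 or of sid2, or without any 1 of the 4 avrB arrays of these genotypes, at limma adjusted p from 0.0544 to 0.106. In atgsnor1-1, limma called none of the 10 genes, against 0.557% of all probe sets in either direction, and 3 genes had an unadjusted p under 0.05. The largest difference there was -2.07 ± 0.60 for EXPA8 (limma adjusted p = 0.144), which passed with the pseudocount (-1.78, limma adjusted p = 0.0186) and in a fit of the compared groups alone (limma adjusted p = 0.0110). EXPA8 in sid2, at -1.54 ± 0.60, likewise passed under those 2 settings (limma adjusted p = 0.0293 and 0.0194). With raised signals both passed (limma adjusted p = 0.00374 in atgsnor1-1 and 0.00834 in sid2).

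The genotypes were then compared in untreated leaves. In sid2, EXLA1 and XTH27 were higher than in Col-0 and XTH18 was lower, against 1.96% of all probe sets higher and 3.96% lower. EXLA1 had 213 and 325 units in sid2 and 50.6 and 31.3 units in Col-0, a 6.61-fold difference (log2 2.73 ± 0.27, limma adjusted p = 4.59e-06) that ranked 15 from the top of all probe sets. One of the untreated sid2 arrays lay below and the other above both avrB arrays of Col-0, at 267 and 285 units. XTH27 had 724 and 1032 units in sid2 and 342 and 266 units in Col-0, a 2.86-fold difference (1.52 ± 0.20, limma adjusted p = 7.08e-05). The XTH18 difference (-2.75 ± 0.73, limma adjusted p = 0.0227) is between signals of 2.35 and 1.23 units in sid2 and 11.2 and 11.6 units in Col-0, all under the filter level, and gives no fold change.

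In untreated atgsnor1-3, XTH18 was the 1 gene of the 10 that passed against Col-0, against 8.79% of all probe sets in either direction, with 1.76 and 1.92 units in atgsnor1-3 and 11.2 and 11.6 units in Col-0 (-2.63 ± 0.73, limma adjusted p = 0.0205). Both XTH18 calls were lost with raised signals, which are equal, with the pseudocount (-0.89 in sid2 and -0.88 in atgsnor1-3), in a fit of the compared groups alone (limma adjusted p = 0.508 and 0.570), and without either untreated array of Col-0 (limma adjusted p = 0.0725 and 0.0935 for sid2 and 0.0684 and 0.0756 for atgsnor1-3). They were also lost without the second untreated array of sid2 (limma adjusted p = 0.163) and without either untreated array of atgsnor1-3 (limma adjusted p = 0.0576 and 0.0506). EXLA1 was higher in both untreated atgsnor1-3 arrays than in both of Col-0, and its difference of 0.93 ± 0.27 (limma adjusted p = 0.0271) was just under the size threshold. It passed after quantile normalization (1.01, limma adjusted p = 0.0211) and without the first untreated array of Col-0 (1.28) or of atgsnor1-3 (1.07).

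In untreated atgsnor1-1 against Col-0, limma called none of the 10 genes, against 0.147% of all probe sets in either direction, and 2 genes had an unadjusted p under 0.05. XTH18 passed there only without the second untreated array of atgsnor1-1 (-3.57, limma adjusted p = 0.0111), again between signals under the filter level. EXPA8 stood higher in both untreated arrays of each mutant than in both of Col-0, with differences of 0.77, 0.85 and 0.74 ± 0.42 in atgsnor1-1, atgsnor1-3 and sid2 that did not pass. Among the mutants, EXLA1 was lower in untreated atgsnor1-3 than in untreated sid2 (-1.79 ± 0.27, limma adjusted p = 0.00137), 1 of the 10 genes against 2.25% of all probe sets in either direction. XTH27 in that comparison (-0.94 ± 0.20, limma adjusted p = 0.0147) passed the size threshold without the second untreated array of atgsnor1-3 (-1.15) or the first of sid2 (-1.19). Between untreated atgsnor1-3 and atgsnor1-1 limma called none of the 10, against 6.25% of all probe sets, with 2 at an unadjusted p under 0.05. XTH18 passed there without the first untreated array of atgsnor1-1 (-2.43, limma adjusted p = 0.00487), between signals under the filter level.

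The 6 genes left out by the filter had mean log2 signals over all arrays below its level. In some groups both arrays were above 20.2 units, as for XTH16 in sid2, with 33.5 and 28.6 units after avrB and 28.5 and 30.7 units untreated, and in untreated atgsnor1-3, with 26.4 and 35.5 units. The expansin-like EXLA2 (AT4G38400) ran from 1.5 to 21.8 units with a median of 3.60 over the 16 arrays. EXLA3 (AT3G45960), which in the TAIR10.1 annotation is the protein-coding gene next to EXLA1 on chromosome 3, ran from 0.881 to 20.8 units with a median of 2.54. EXLA2 had 16.0 and 21.8 units in untreated sid2, against 1.95 and 1.5 units in untreated Col-0. XTH16 (AT3G23730) had a median of 22.0 units and a range of 1.58 to 35.5, XTH20 (AT5G48070) a median of 15.5 and a range of 5.73 to 24.6, and XTH33 (AT1G10550), whose protein is anchored in the plasma membrane, a median of 16.5 and a range of 1.26 to 44.0 units. XTH21 (AT2G18800), known from root growth, stayed between 0.481 and 4.11 units. Fitted without the filter, none of the 6 was called by limma in any of the 17 comparisons, with 7 of the 102 values at an unadjusted p under 0.05. The lowest adjusted p was that of EXLA2 in untreated sid2 against Col-0 (3.45 ± 1.07, limma adjusted p = 0.075).

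**Figure D5:**
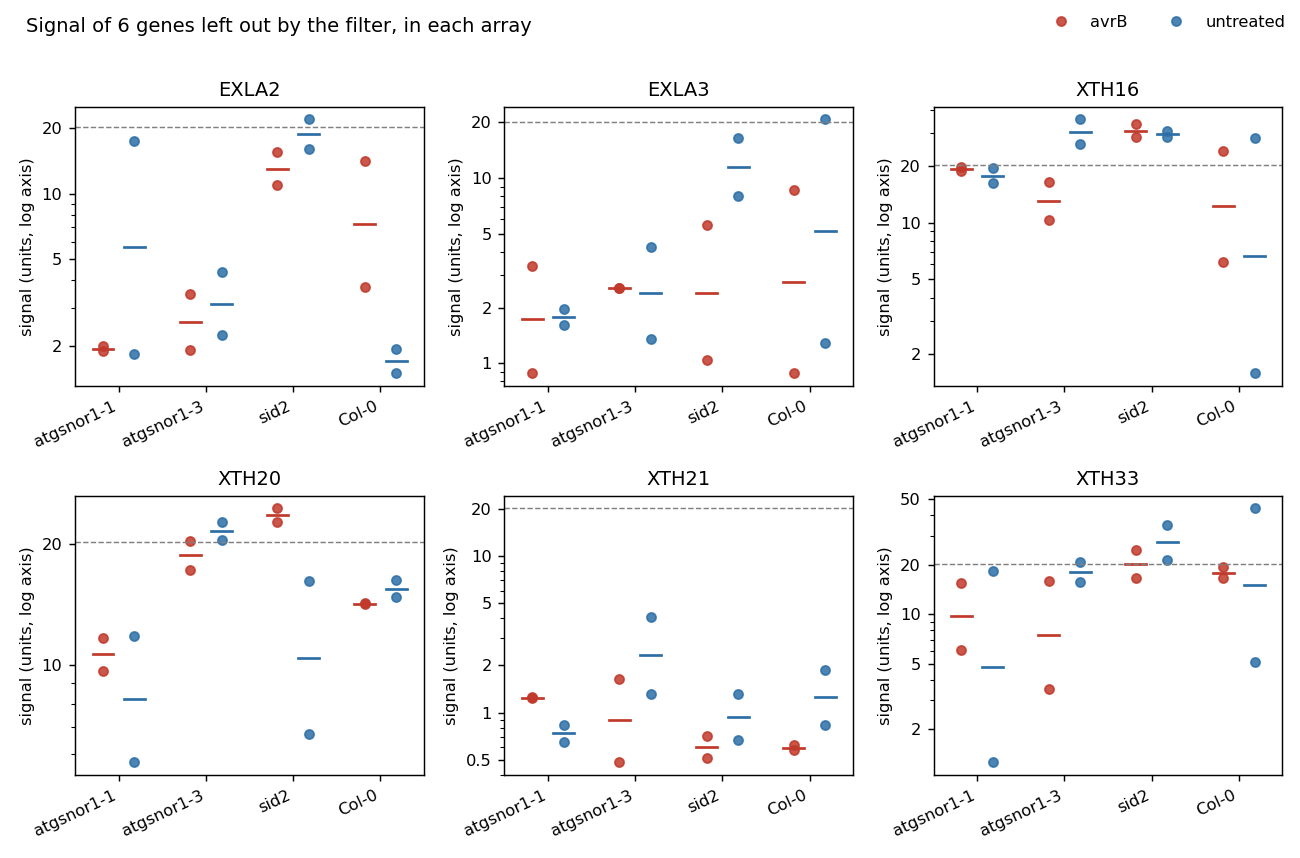
Signal in units on a log axis for the 6 genes left out by the filter, 1 panel a gene, with avrB arrays (red) left of untreated arrays (blue) in each genotype, geometric means as bars and the filter level of 20.2 units dashed. Most points lie under or near the dashed line, XTH21 reaches 4.11 units and XTH33 44.0 units, and the 2 arrays of a group often lie far apart.

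Of 21 further expansin loci that were not on the list, 10 had a probe set of their own in the annotation used and 3 passed the filter. EXLB1 (AT4G17030), the expansin-like B gene, fell in 3 of the 4 genotypes after avrB, while EXPA9 and EXPA15 did not pass in any. EXLB1 had 29.4 and 22.4 units after avrB in atgsnor1-3 against 115 and 103 units untreated (log2 difference -2.08 ± 0.22, limma adjusted p = 7.82e-07). In sid2 the difference was -1.49 ± 0.22 (limma adjusted p = 4.84e-05), in Col-0 -1.12 ± 0.22 (limma adjusted p = 0.00135), and in atgsnor1-1 -0.74 ± 0.22 (limma adjusted p = 0.0145), under the size threshold. EXLB1 was also lower in atgsnor1-3 than in Col-0, by a difference of -2.0 ± 0.22 after avrB (limma adjusted p = 6.86e-06) and -1.04 ± 0.22 untreated (limma adjusted p = 0.00339). Of the 10 further XTH loci, 2 had a probe set in that annotation and neither passed the filter.

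Few genes of the other wall lists were tested, since few had a probe set of their own in the annotation used. For xyloglucan synthesis and trimming 1 of 10 loci was tested, the glucan synthase CSLC4, and for cellulose synthesis 1 of 12, COB, which orients cellulose deposition; neither passed in any of the 17 comparisons. No plasma membrane proton pump of the 3 listed, the enzymes that acidify the wall, had a probe set in that annotation. For callose and wall integrity 2 of 6 were tested, the receptor kinases FER and THE1, and neither passed for avrB or against Col-0 in either state. THE1 had a response below that of Col-0 in atgsnor1-3 (difference -1.04 ± 0.32, limma adjusted p = 0.0301) and was lower there than in sid2 after avrB (-1.07 ± 0.22, limma adjusted p = 0.00335).

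For pectin 2 of 16 loci were tested, both pectin methylesterases, enzymes that strip methyl groups from the matrix polymer homogalacturonan. PME41 (AT4G02330) rose in all 4 genotypes, and least in atgsnor1-3. It had 84.8 and 107 units after avrB in atgsnor1-3 against 15.9 and 33.3 units untreated, and 887 and 1075 units after avrB in Col-0 against 62.8 and 59.4 units untreated. Its responses were 2.05 ± 0.30 in atgsnor1-3 (limma adjusted p = 2.42e-05), at least 3.67-fold since 1 untreated signal was under the filter level, and 4.00 ± 0.30 in Col-0, and they differed by -1.95 ± 0.42 (limma adjusted p = 0.00404). After avrB it was lower in atgsnor1-3 than in Col-0 by a difference of -3.35 ± 0.30 (limma adjusted p = 7.68e-07). In untreated leaves PME41 was called lower in atgsnor1-3 than in Col-0 as well. PME35 (AT3G59010) fell in atgsnor1-3 (-1.84 ± 0.40, limma adjusted p = 0.00106), at least 2.20-fold, and in sid2 (-1.45 ± 0.40, limma adjusted p = 0.00864), at least 2.66-fold. It was lower in atgsnor1-3 than in Col-0 after avrB (-1.72 ± 0.40, limma adjusted p = 0.00478), at least 2.03-fold.

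Of 5 touch-responsive genes other than XTH22, 2 had a probe set in the annotation used and 1 was tested. The calmodulin-like CML38 (AT1G76650) rose in all 4 genotypes. The increase was 20.9-fold in sid2, where all signals were above the filter level. It was at least 21.6-fold in atgsnor1-3, at least 4.42-fold in atgsnor1-1 and at least 5.14-fold in Col-0. Like XTH18, it was dim untreated, at 1.55 to 22.2 units over the 8 untreated arrays. Its response in atgsnor1-3 was larger than in Col-0 by 3.62 ± 0.87 (limma adjusted p = 0.00846), and by 2.07 ± 0.34 with signals raised to the filter level (limma adjusted p = 0.000204). The response in sid2 differed from that of Col-0 by 1.20, which did not pass. With raised signals it passed there too, at 2.02 ± 0.34 (limma adjusted p = 0.00106).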

How the data were processed

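The deposited values are linear intensity signals, 1 per probe set and array, and the submitters' processing notes name MAS5 and GCOS, with no version, as the tools the authors used. The arrays are 1-colour ATH1 arrays of leaf RNA, and the values show that the mean of each, trimmed by 2% at either end, was set equal. The title of the second sid2 avrB array names both replicate numbers; it was taken as the second. Of 22810 probe sets, 64 controls and the dimmest 40% by mean log2 signal (under 20.2 units) were left out; detection calls were not used here. A single gene is annotated to each of 13513 probe sets and several to 503; 13436 matched a locus of the RefSeq table for TAIR10.1. Statements that a locus had no probe set refer to this annotation, not to the array itself.

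Log2 signals without a pseudocount were fitted with limma 3.58.1 in R 4.3.3, as 8 group means over 16 arrays with 8 residual degrees of freedom and a variance trend. Fits of the compared groups alone had fewer residual degrees of freedom. The moderated test was two-sided, in 13 planned comparisons and 4 added after seeing values, and was tested on simulated data. Alternatives were quantile normalization, no filter, a pseudocount of 9.48 units, a fit of the compared groups alone, the replicate number as a block, each array left out and, added after seeing values, signals under 20.2 units raised to it. Correlations of the deviations of arrays with the same number were -0.15 to 0.10, so no shared shift by number was seen. That cannot exclude that samples were paired.

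The genes, the wall and marker lists and the comparisons were chosen with earlier results of these data known. All listed genes with a probe set are named, as are at most 2 called genes of each wall list. The number of arrays limits the precision. Sequences were not used here.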

Additional observations from a re-analysis of the deposited data

Results flagged for a closer look

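The response to avrB differed between a mutant and Col-0, by the test of the difference itself, for 5 of the tested genes in atgsnor1-3 and 2 in sid2. Of all probe sets, 6.79% passed with a response above that of Col-0 and 8.27% with one below it in atgsnor1-3. In sid2 these shares were 1.92% and 0.681%. In atgsnor1-3 the log2 response minus that of Col-0 was -4.25 for EXPA8, -2.94 for EXPB1, -2.22 for XTH32, -1.69 for EXPA16 and 4.02 for XTH18. In sid2 it was 4.75 for XTH18 and -2.06 for EXLA1. The calls of XTH18 in both of these mutants and of EXPB1 in atgsnor1-3 were lost in some fits with 1 array left out. The values of XTH18, EXPB1 and EXPA8 rest on signals under 20.2 units in at least 1 of the groups. With such signals raised to 20.2 units the difference in atgsnor1-3 was 0.19 for EXPB1, -2.45 for EXPA8 and 1.39 for XTH18. That of XTH18 in sid2 was then 2.00. Under this setting EXPA8 also passed in atgsnor1-1 (-2.07) and sid2 (-1.54), XTH19 in sid2 (2.37) and EXPA4 in atgsnor1-3 (-1.02).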

How the results depend on the processing

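Of the 46 called values of the 10 genes, 29 passed under every alternative run. All 46 passed with quantile normalization, without the filter and with the replicate block, 42 with the pseudocount, 37 with signals under 20.2 units raised to that level, an alternative added after seeing the data, and 40 in a fit of the compared groups alone. With 1 array left out, 182 of 212 such values passed. The cause of the lost calls was not tested. The share of all probe sets called under each alternative is not given here. The counts that follow, also those with an array left out, therefore cannot be set against it. The number of genes called, which was 1 in untreated atgsnor1-3 against Col-0, was 2 with quantile normalization and 0 with the pseudocount, the raised signals or only the compared groups. After avrB it was 0 in sid2 against Col-0 and 2 under these 3 settings, and 0 in atgsnor1-1 and 1 with the raised signals or only the compared groups. For the response of atgsnor1-1 against that of Col-0 it was 0, and 1 under the 3 settings; for that of sid2 it was 2, and 4 with the raised signals. The EXPB1 response of atgsnor1-3 minus that of Col-0 turned to 0.19 with the raised signals, which by construction hold no difference below 20.2 units.

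With each array left out in turn, the number called for avrB against untreated was 8 to 9 in atgsnor1-3, 4 to 5 in atgsnor1-1, 3 to 5 in sid2 and 2 to 4 in Col-0. Against Col-0 untreated it was 0 to 1 in atgsnor1-1, 0 to 1 in atgsnor1-3 and 2 to 3 in sid2. Against Col-0 after avrB it was 0 to 1 in atgsnor1-1, 5 in atgsnor1-3 and 0 in sid2. For the response differences it was 0 in atgsnor1-1, 3 to 6 in atgsnor1-3, the lowest without the first avrB array of Col-0, and 1 to 2 in sid2. For atgsnor1-3 it was 0 to 1 against untreated atgsnor1-1, 1 to 2 against untreated sid2, 3 to 5 against atgsnor1-1 after avrB and 4 to 5 against sid2 after avrB. XTH18 in untreated atgsnor1-3 against atgsnor1-1, which did not pass (-0.74), turned to 0.94 without the second untreated array of atgsnor1-1 and was -2.43 without the first. The replicate block, with numbers that showed no shared shift, gave 9 called genes in the atgsnor1-3 response, as without it. Signals under 20.2 units limit what can be read of XTH18, XTH19, EXPB1 and EXPA8.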

Other observations

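Of the loci outside the 37 that had a probe set and were left out by the filter, 12 in number, the calmodulin-like touch gene CML39 (AT1G76640) was the 1 that limma called in a fit without the filter, with 16 of the 204 values of these loci at an unadjusted p under 0.05. CML39 rose after avrB in sid2 (limma adjusted p = 0.000372), in atgsnor1-1 (limma adjusted p = 0.000695) and in Col-0 (limma adjusted p = 0.0265). All its untreated signals were under 20.2 units, so the increases are bounded only as at least 2.34-fold in sid2, 2.01-fold in atgsnor1-1 and 1.06-fold in Col-0. It had 44.2 and 37.3 units after avrB in atgsnor1-1 against 1.46 and 0.727 units untreated, and in sid2 63.1 and 35.4 units against 0.616 and 1.59 units. In Col-0 it had 21.2 and 21.6 units after avrB against 1.02 and 4.07 units untreated. In atgsnor1-3 CML39 had 9.17 and 4.03 units after avrB against 0.778 and 1.77 units untreated and was not called. A difference between the genotypes in CML39 was not called.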
